A study of Mus musculus with 9 samples.

Results

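Messenger RNA of 9 genes that glucocorticoid hormones classically induce was examined in mouse cortex: Sgk1, Tsc22d3, Zbtb16, Klf9, Errfi1, Cdkn1a, Hif3a, Sult1a1 and Dusp1. They were taken by symbol from a table of 34714 genes, and all 9 had enough counts to be among the 18644 genes tested. There were 9 libraries in 3 groups of 3. One group was naive, another had experimental autoimmune encephalomyelitis (EAE, a model of multiple sclerosis in which the immune system attacks the central nervous system), and the last had EAE and received Au18(L-NIBC)14, a ligand-protected gold nanocluster. Naive and untreated EAE mice have no treatment in the labels. The sources used here do not give the strain, sex, age, immunising antigen, dose, schedule, time of sampling or any vehicle. The labels name the tissue as brain and the series' design text as cortex. All libraries were made from oligo(dT)-selected RNA. Each library is titled as a brain of its own, and nothing else says how animals map to libraries, so the p-values measure the spread between these samples.

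Glucocorticoids enter cells and bind the glucocorticoid receptor, Nr3c1, which then moves to the nucleus and binds DNA at short palindromic sites called glucocorticoid response elements. Genes near such sites are switched on within hours in many tissues, the brain included, and a shared set of them responds in neurons, glia and vessels. In the brain the mineralocorticoid receptor, Nr3c2, binds the same hormones. The 9 genes act at different levels: Sgk1, Errfi1 and Dusp1 tune kinase signalling, Tsc22d3, Zbtb16, Klf9 and Hif3a regulate transcription, Cdkn1a restrains the cell cycle and Sult1a1 is a metabolic enzyme.

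Total counts ran from 26972179 to 45243553 per library. Levels below are CPM (counts scaled to library size) with TMM factors, and differences are log2 fold changes from edgeR with p-values adjusted over all 18644 genes and a threshold of 0.05. Markers of cortical neurons were present in every library (Slc17a7 1152 to 1439 CPM, Tbr1 95.8 to 156 CPM), and the summed level of 6 cortical excitatory markers was 1693 to 1751 CPM in naive, 1424 to 1651 CPM in EAE and 1811 to 1884 CPM in treated EAE. The 5 red cell markers summed to 131 to 175 CPM in naive, 7.16 to 23.6 CPM in EAE and 102 to 380 CPM in treated EAE, and 2 of the 5 were called lower in EAE than in naive. Both sums set EAE apart from the other groups, as most of the 9 genes did. Summed choroid plexus markers were at 896 CPM in EAE replicate 1, 104 CPM in EAE replicate 3 and at most 44.6 CPM elsewhere. All 6 had log2 fold changes above 0 in EAE against naive (median 1.87) and below 0 in treated against untreated EAE (median -2.28), and none passed. Among leukocyte markers, Cd3e, Cd3g, S100a8 and S100a9 were each at 0 in at least 1 library, and the summed level was 1.25 to 1.52 CPM in naive, 2.24 to 8.86 CPM in EAE and 1.18 to 2.82 CPM in treated EAE. Microglial, astrocyte, oligodendrocyte and endothelial sums overlapped between naive and EAE. Of their markers, 4 of 5 microglial (median log2 fold change 0.40) and 4 of 6 endothelial (0.26) were above 0 in EAE against naive. So were 3 of 6 astrocyte (0.02) and 2 of 6 oligodendrocyte ones (-0.32), and none passed. Most of the astrocyte sum was Slc1a2, and Gfap, the astrocyte marker known to rise in reactive cells, had another pattern: 99.6 to 210 CPM in naive, 262 to 628 CPM in EAE and 159 to 235 CPM in treated EAE. Every EAE library was thus above the other 6 for Gfap, though it did not pass in either comparison (log2 fold change 1.42, edgeR adjusted p = 0.109, and -1.18, edgeR adjusted p = 0.190). Summed striatum markers, which follow the dissection, were 179.5 to 1287 CPM in naive, 201 to 1112 CPM in EAE and 261 to 821 CPM in treated EAE, and all 6 had log2 fold changes below 0 in treated against untreated EAE (median -0.60). The 6 meningeal fibroblast markers summed to 53.6 to 87.3 CPM in naive, 81.4 to 231 CPM in EAE and 35.3 to 156 CPM in treated EAE, and all 6 were above 0 in EAE against naive (median 0.94). None of these 12 markers passed. The part of these cell types and regions in the results was not tested, and in whole tissue a change in cell number and one in RNA per cell cannot be told apart.

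In EAE against naive cortex, which shows how these genes differed in the disease, Sgk1, Hif3a and Sult1a1 rose, to 3.49, 4.35 and 2.55 times their naive level. These are 3 of 9 genes, where 0.735% of all genes tested were called higher and 0.987% in either direction. All 9 had a log2 fold change above 0, with a median of 0.80 (range 0.03 to 2.12) against a median of -0.01 over all genes, of which 49% were above 0. In 7 of the 9, all except Zbtb16 and Dusp1, every EAE library was above every naive library, which held for 12.2% of all genes tested. Without naive replicate 1 or 3 none of the 9 genes passed, without naive replicate 2 only Hif3a did, and without EAE replicate 2 Sgk1 and Sult1a1 did. DESeq2 called 6, adding Tsc22d3, Errfi1 and Cdkn1a, where it called 1086 of all 18644 genes, 719 of them higher. The 3 genes were the same without EAE replicate 1.

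Cortex of treated EAE mice was compared with that of untreated EAE mice to see how the same genes differed between these groups. All 9 log2 fold changes were below 0, with a median of -0.65 (all genes 0.00) and a range of -1.42 to -0.15. Sgk1 fell to 0.374 of its EAE level and was the 1 gene of 9 past the threshold, where 0.129% of all genes tested were called lower and 0.22% in either direction. In 7 of the 9, again all except Zbtb16 and Dusp1, every treated library was below every untreated EAE library, which held for 9.28% of all genes. Which genes passed depended on the fit. DESeq2 called Sgk1, Tsc22d3, Cdkn1a, Hif3a and Sult1a1, where it called 748 of all 18644 genes, 402 of them lower. With the replicate number as a block over all 9 libraries (same-numbered libraries of these 2 groups deviated together), Tsc22d3 and Hif3a passed in place of Sgk1. With that block on the EAE and treated libraries alone only Hif3a passed, and with no filter on low counts Sult1a1 (adjusted p = 0.0482) passed in place of Sgk1 (adjusted p = 0.0513). Both comparisons use the same 3 EAE libraries, so a high EAE library raises the difference in one and lowers it in the other.

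Treated EAE against naive asked what remained different under treatment. None of the 9 genes passed with edgeR, where 0% of all genes were called, or with DESeq2. At an unadjusted p under 0.05 there were 2, Hif3a and Sult1a1, against 1.07% of all genes higher at that level. These were also the 2 genes whose treated libraries all lay above the naive ones, which 3.51% of all genes did. The log2 fold changes ran from -0.29 for Dusp1 to 0.85 for Hif3a, with a median of 0.23 (all genes 0.01).

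**Figure D1:**
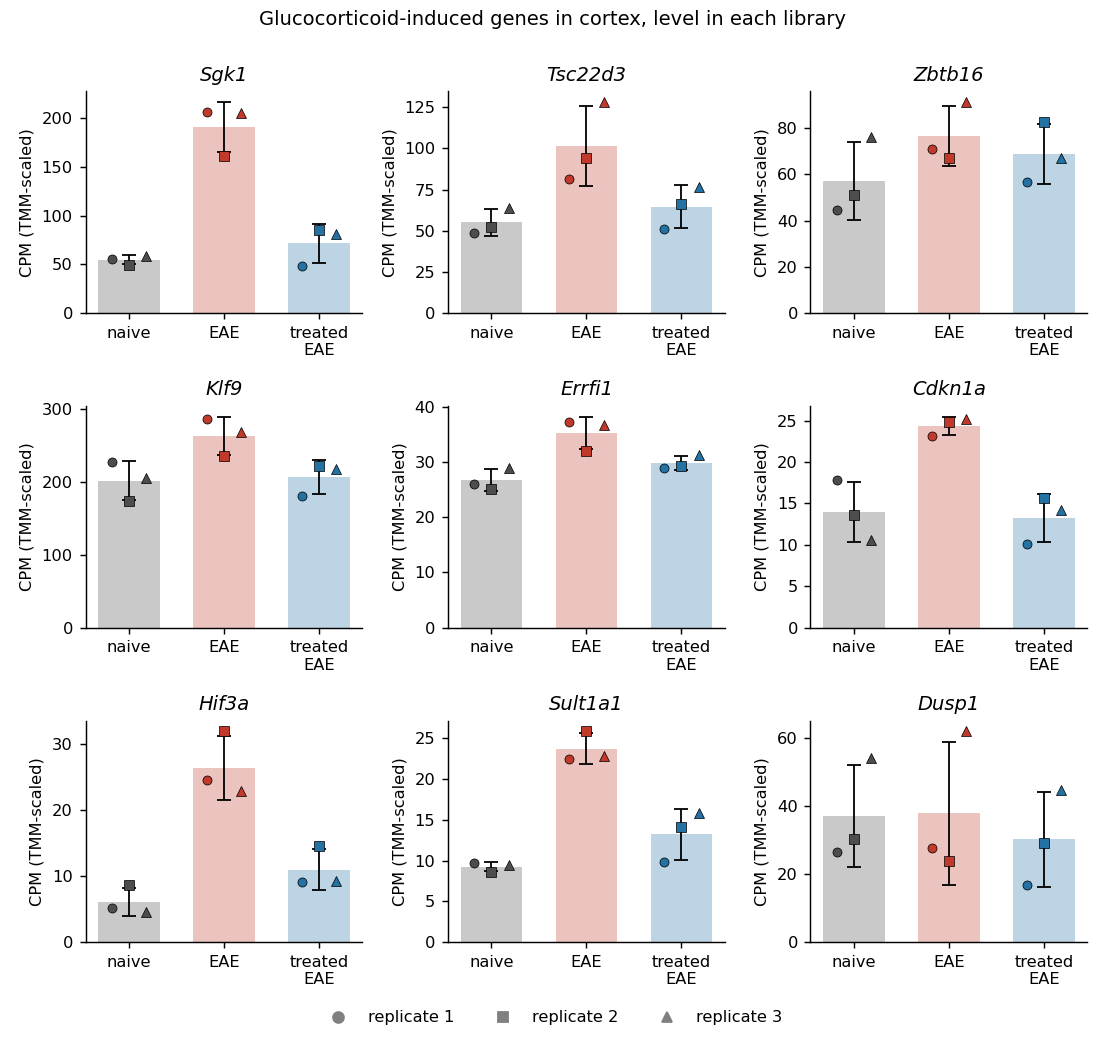
Level of each of the 9 genes in every library, in CPM on linear axes from 0, by group. Bars are means of 3 libraries, whiskers the SD, and the marker shape gives the replicate. Sgk1, Hif3a and Sult1a1 show EAE libraries well above the rest, and Dusp1 shows replicate 3 highest in each group.

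Sgk1 encodes a protein kinase of the AGC family that acts downstream of PI3-kinase and raises the activity of ion channels and transporters. It lies on chromosome 10, 21882184 to 21999903 (GRCm38, plus strand), with 13 transcripts in GENCODE M21 and 6 promoter windows in RefSeq. It was at 55.9, 49.8 and 58.5 CPM in naive replicates 1 to 3, at 206, 162 and 205 CPM in EAE, and at 48.5, 85.5 and 80.5 CPM in treated EAE. All EAE libraries were thus above all 6 others, and treated replicate 1 was below the lowest naive library. The log2 fold change was 1.80 in EAE against naive (SE 0.20, edgeR adjusted p = 0.0114). In treated against untreated EAE it was -1.42 (SE 0.20, 95% interval -1.87 to -0.97, edgeR adjusted p = 0.0456). That call was lost in 12 of 17 alternatives. Over all 17 the log2 fold change stayed between -1.58 and -1.21, and the adjusted p ran from 6.92e-10 (DESeq2) to 0.158 (edgeR, only EAE and treated libraries fitted). The call was lost when any library was left out other than treated replicate 1 (edgeR adjusted p = 0.0100 without it). With the replicate block the edgeR adjusted p was 0.0642. Against naive, treated EAE stood at 0.39 (95% interval -0.06 to 0.83).

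One Sgk1 promoter window holds a full glucocorticoid response element, and is shown for that reason. The 250 bases before the RefSeq start at 21993890 (chr10:21993640-21993889, plus strand, GRCm38.p6, RefSeq) carry AGAACA and TGTTCT, separated by 3 bases, at 21993701 to 21993715, shown in capitals.
Sgk1: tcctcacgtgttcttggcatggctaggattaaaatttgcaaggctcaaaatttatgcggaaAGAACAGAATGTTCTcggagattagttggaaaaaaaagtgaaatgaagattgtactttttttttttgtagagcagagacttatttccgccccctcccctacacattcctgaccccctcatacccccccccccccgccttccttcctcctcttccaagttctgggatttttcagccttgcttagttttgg
The site begins 189 bases before that start and 965 bases before the last Sgk1 start, at 21994666. Among 32851 promoter windows of the same length, 3 hold this consensus with any 3 bases between (0.00913%), and 127 (0.387%) hold its relaxed form, which drops the outermost base at each end and frees the third. Every full site also holds the relaxed form and a TGTTCT on each strand. Of the 17 windows of 8 genes with an entry, this was the only one with either form. The gene-level counts do not tell which start was used. The match is a description of the letters and was not tied to binding by any data used here.

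Errfi1 encodes MIG6, a cytoplasmic inhibitor of the EGF receptor (chromosome 4, 150853919 to 150868892, plus strand). Its levels were 26.1, 25.2 and 29.0 CPM in naive, 37.3, 32.0 and 36.7 CPM in EAE, and 29.0, 29.2 and 31.2 CPM in treated EAE. EAE was above both other groups, while treated replicate 1 lay just under naive replicate 3. The difference between EAE and naive was small and even, at a log2 fold change of 0.40 (SE 0.087, 95% interval 0.21 to 0.60, edgeR adjusted p = 0.0634), and it passed in 2 of 17 alternatives. Treated against untreated EAE gave -0.25 (SE 0.087, edgeR adjusted p = 0.230). Of 12 tested genes of the EGF receptor pathway, its ligands and inhibitors, none passed with edgeR in either comparison. DESeq2 also called 0 of them, and the medians were 0.04 and 0.00.

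Dusp1 encodes a phosphatase (MKP-1) that switches off the p38 and JNK kinases, and is induced by stress and neuronal activity as well as by glucocorticoids (chromosome 17, minus strand, 26505590 to 26562128 in GENCODE M21 and 26505591 to 26508472 in RefSeq). Its levels were 26.6, 30.2 and 54.1 CPM in naive, 27.6, 23.9 and 61.9 CPM in EAE, and 16.9, 29.1 and 44.6 CPM in treated EAE. Replicate 3 was highest in every group, and the groups overlapped throughout. No difference was detectable: the log2 fold change in EAE against naive was 0.03 (SE 0.48), with a 95% interval from -1.07 to 1.13. Its direction turned in 5 of 17 alternatives.

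Many activity-regulated immediate early genes were also highest in replicate 3, more of them in EAE and treated EAE than in naive. Of 17 such genes, 10 were highest in naive replicate 3, 16 in EAE replicate 3 and 14 in treated replicate 3, each among the libraries of its group. Fos, a transcription factor of that class, was at 27.2, 25.5 and 39.6 CPM in naive, 12.3, 12.4 and 48.1 CPM in EAE and 9.77, 24.7 and 36.7 CPM in treated EAE. Like Dusp1, it was highest in replicate 3 of each group and its groups overlapped. None of the 17 passed with edgeR or DESeq2 in either comparison, and the medians were -0.03 and -0.17. The mean of the list relative to naive was -0.44, -0.59 and 0.73 in EAE replicates 1 to 3. What set replicate 3 apart was not tested.

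The Dusp1 promoter is shown beside these values because it holds elements of a different kind. The window chr17:26508473-26508722 (minus strand, GRCm38.p6, RefSeq) carries a cAMP response element, TGACGTCA, and an E-box, CACGTG, both in capitals.
Dusp1: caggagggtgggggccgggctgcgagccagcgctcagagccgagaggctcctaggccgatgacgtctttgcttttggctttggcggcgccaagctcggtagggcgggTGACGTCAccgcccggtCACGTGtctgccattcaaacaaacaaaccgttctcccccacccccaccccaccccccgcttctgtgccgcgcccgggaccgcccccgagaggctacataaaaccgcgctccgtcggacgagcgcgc
TGACGTCA was found in 508 of 32851 windows (1.55%) and CACGTG in 1978 (6.02%), each searched on both strands. Errfi1 was the other of the 9 genes with TGACGTCA, 51 bases before its start at 150855070, and Sgk1 the other with CACGTG, which shares 2 bases with a TGTTCT in the window above. No TGTTCT was found in the Dusp1 window.

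Tsc22d3 encodes GILZ, a leucine zipper protein that binds NF-kB and AP-1 and is known for anti-inflammatory actions of glucocorticoids (chromosome X, 140539528 to 140600659, minus strand). It was at 48.9, 52.2 and 64.0 CPM in naive, 81.4, 94.3 and 128 CPM in EAE, and 50.8, 66.4 and 76.5 CPM in treated EAE. EAE libraries were all above the others, and replicate 3 was highest in each group, as for Dusp1. The log2 fold change of 0.88 missed the threshold (SE 0.20, edgeR adjusted p = 0.0733). Treated against untreated EAE gave -0.65 (SE 0.20, edgeR adjusted p = 0.181), which passed with the replicate block (edgeR adjusted p = 0.0295) and with DESeq2 (adjusted p = 0.0302), but not with the block on EAE and treated libraries alone (edgeR adjusted p = 0.0604).

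Zbtb16 encodes PLZF, a zinc finger repressor of transcription (chromosome 9, 48654297 to 48836222, minus strand). Its naive values of 44.4, 50.9 and 76.1 CPM overlapped those of EAE (70.8, 67.2 and 91.3 CPM) and of treated EAE (56.8, 82.6 and 67.2 CPM). Naive replicate 3 was above EAE replicates 1 and 2. The log2 fold change in EAE was 0.42 (SE 0.22, 95% interval -0.08 to 0.92), and that between treated and untreated EAE was -0.15 (95% interval -0.64 to 0.35). Neither passed, and the first interval still holds a rise of 0.80, the median of the 9 genes.

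Klf9 encodes a Krüppel-like zinc finger factor that responds to glucocorticoids and thyroid hormone in neurons (chromosome 19, 23141226 to 23168134, plus strand). It was at 227, 174 and 205 CPM in naive, 287, 236 and 269 CPM in EAE, and 181, 222 and 218 CPM in treated EAE. EAE replicate 2 was only just above naive replicate 1, and the treated libraries lay within the naive range. The log2 fold change was 0.38 in EAE (SE 0.12, edgeR adjusted p = 0.154) and -0.35 in treated against untreated EAE (SE 0.12, edgeR adjusted p = 0.219). Of its relatives, Klf15, also known as a glucocorticoid target, rose by 0.96 on the log2 scale (SE 0.12, edgeR adjusted p = 0.0118) and fell by 0.86 in treated against untreated EAE (edgeR adjusted p = 0.0365). Klf15 was at 27.6, 29.8 and 36.1 CPM in naive, 61.2, 57.6 and 62.9 CPM in EAE and 28.4, 35.3 and 36.3 CPM in treated EAE, so that every EAE library stood clear of the other 6. The first Klf15 call was lost without naive replicate 1 or 2, and the second with any library left out except naive replicate 1 or 3. Klf13 rose by 0.37 in EAE (edgeR adjusted p = 0.0462), a call lost in 9 of 17 alternatives, among them any 1 naive or EAE library left out, or treated replicate 2.

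Hif3a encodes a hypoxia-inducible factor subunit with isoforms that restrain the response to low oxygen (chromosome 7, 17031507 to 17062427, minus strand). It had the largest log2 fold change of the 9 genes and the lowest naive level, 5.14, 8.62 and 4.62 CPM, against 24.6, 32.0 and 22.9 CPM in EAE and 9.18, 14.6 and 9.22 CPM in treated EAE. The 3 groups did not overlap, with treated EAE between the other two. It rose by 2.12 in EAE (SE 0.28, edgeR adjusted p = 0.0192). Treated against untreated EAE gave -1.27 (SE 0.27, edgeR adjusted p = 0.0953), which passed with the replicate block (edgeR adjusted p = 0.00698) and DESeq2 (adjusted p = 0.00029), and treated against naive 0.85 (95% interval 0.24 to 1.47, edgeR adjusted p = 1.00). Of 15 hypoxia target genes only Hk2, a hexokinase, rose (1.15, edgeR adjusted p = 0.0460), and the median was 0.02. In 4 of the 15 every EAE library was above every naive library, which held for 12.2% of all genes tested. In another 4, Vegfa, Bnip3, Pdk1 and Ldha, named after their values were seen, every one was below. The share of all genes lying below is not given here, so these are a description only. DESeq2 called 1 of the 15 higher and 2 lower. The edgeR call of Hk2 was lost when any library but EAE replicate 1 was left out. Of all genes tested, edgeR called 0.735% higher in EAE against naive.

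Cdkn1a encodes p21, an inhibitor of cyclin-dependent kinases that both p53 and glucocorticoids induce (chromosome 17, 29090976 to 29100727, plus strand). It was at 17.8, 13.6 and 10.6 CPM in naive, 23.1, 24.8 and 25.2 CPM in EAE, and 10.1, 15.6 and 14.2 CPM in treated EAE. The EAE libraries were close together and above all others, while naive libraries spread more (SD 3.65 CPM against 1.11 CPM). The log2 fold change was 0.80 in EAE (SE 0.20, edgeR adjusted p = 0.0928) and -0.88 in treated against untreated EAE (SE 0.20, edgeR adjusted p = 0.118). DESeq2 called both (adjusted p = 0.00614 and 0.00277). Of 15 p53 targets, Fas, a death receptor (1.63, edgeR adjusted p = 0.0279), and Trp53inp1, a stress-induced nuclear protein (0.86, edgeR adjusted p = 0.0385), rose in EAE, and the median was 0.05. Both calls were lost without any 1 naive library or EAE replicate 2 or 3, and that of Trp53inp1 also without treated replicate 2. Of all genes tested, 0.735% were called higher in EAE against naive.

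The first Cdkn1a promoter window is shown for the paired cores of a p53 response element. It is chr17:29090729-29090978 (plus strand, GRCm38.p6, RefSeq), with CATG, any 6 bases and CATG in capitals, a spacing chosen after the data were seen and present in 161 of 32851 windows (0.49%).
Cdkn1a: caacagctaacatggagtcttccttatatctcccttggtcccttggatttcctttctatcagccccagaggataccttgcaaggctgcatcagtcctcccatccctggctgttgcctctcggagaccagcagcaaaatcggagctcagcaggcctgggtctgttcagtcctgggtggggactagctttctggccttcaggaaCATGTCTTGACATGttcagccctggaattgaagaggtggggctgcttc
Neither Cdkn1a window held TGTTCT. The 273 bases of Cdkn1a exons that overlap AC167363.2 on the other strand, 7.68% of their length, cannot be assigned without a strand setting.

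Sult1a1 encodes a phenol sulfotransferase, which adds sulfate to hormones, catechols and drugs (chromosome 7, 126672865 to 126676432, minus strand). It had the tightest naive values, 9.68, 8.65 and 9.44 CPM, with 22.4, 25.8 and 22.8 CPM in EAE and 9.79, 14.1 and 15.9 CPM in treated EAE. The groups did not overlap, although treated replicate 1 was only just above naive replicate 1. It rose by 1.35 in EAE (SE 0.16, edgeR adjusted p = 0.0114). Treated against untreated EAE gave -0.84 (SE 0.16, edgeR adjusted p = 0.0851), and treated against naive 0.51 (95% interval 0.15 to 0.87). Its exons overlap Sgf29 on the other strand by 61 bases (4.05%), as those of Dusp1 overlap Ergic1 by 11.

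The Sult1a1 window (chr7:126676419-126676668, minus strand, GRCm38.p6, RefSeq) is shown as that of a called gene with separate TGTTCT sites and no full element. TGTTCT, or AGAACA where it lies on the other strand, is in capitals 212 and 34 bases before the start.
Sult1a1: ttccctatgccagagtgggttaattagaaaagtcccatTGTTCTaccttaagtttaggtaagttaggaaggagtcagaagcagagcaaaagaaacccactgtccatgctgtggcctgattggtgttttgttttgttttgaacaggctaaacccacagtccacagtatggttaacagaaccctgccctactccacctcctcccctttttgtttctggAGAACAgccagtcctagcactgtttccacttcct
At least 1 TGTTCT stood in 5284 of 32851 windows (16.1%) and in 5 of the 17 windows here, which belong to Sgk1, Tsc22d3 and Sult1a1, or 3 of 8 genes with a window against 18.2% of all such genes. The Hif3a window held none. A GC box, CCGCCC, stood in 7 of the 17 windows, of 5 genes, and in 32.7% of all windows.

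**Figure D2:**
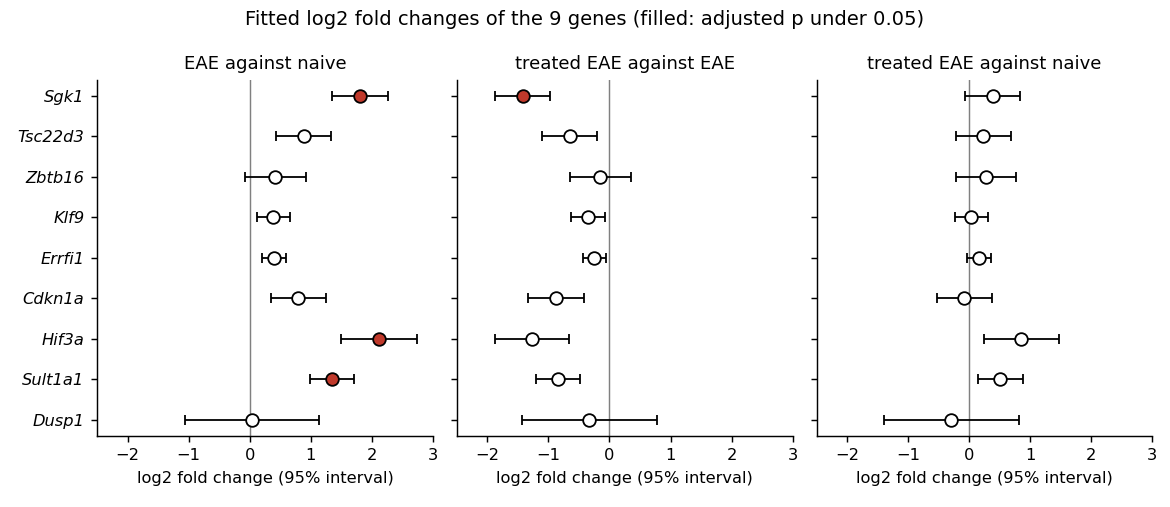
Fitted log2 fold change of each gene in the 3 comparisons, with 95% intervals. Filled points passed an adjusted p of 0.05: Sgk1, Hif3a and Sult1a1 in EAE against naive, and Sgk1 in treated against untreated EAE. The intervals of Dusp1 are the widest.

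**Figure D3:**
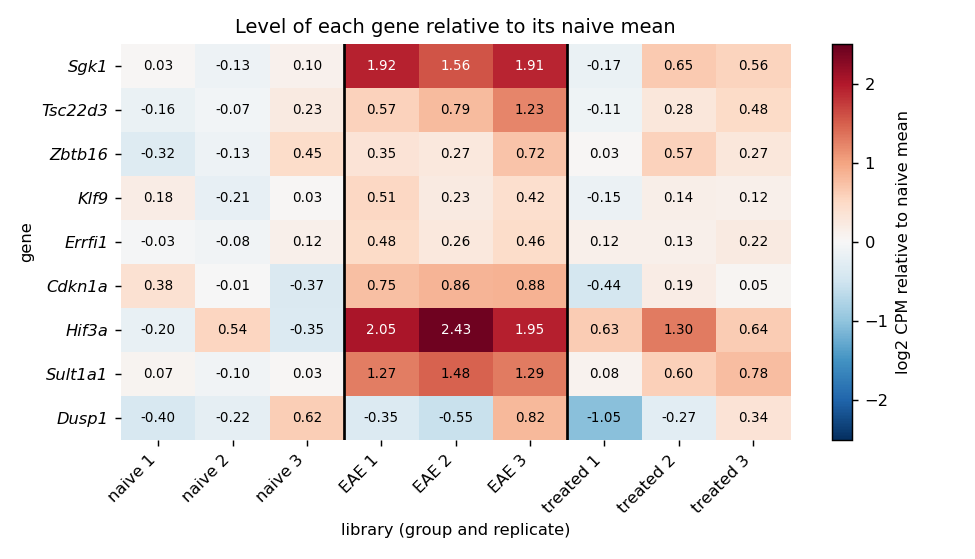
Log2 CPM of each gene (rows) in each library (columns) relative to the mean of the naive libraries. The EAE columns are above 0 for every gene except Dusp1 in EAE 1 and 2, and treated 1 is the lowest treated library in each row.

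The libraries of a group were not alike across the 9 genes. The mean of the 9 log2 levels, relative to naive, was 0.84, 0.81 and 1.07 in EAE replicates 1 to 3, and -0.12, 0.40 and 0.39 in treated replicates 1 to 3. Treated replicate 1 was the lowest treated library for 9 of 9 genes, and below every naive library for Sgk1, Cdkn1a and Dusp1. Treated replicates 2 and 3 were above every naive library for 6 and 5 genes. Treated replicate 1 also had the lowest sum of oligodendrocyte markers of all libraries, 2749 CPM against 4411 and 9055 CPM in the other two treated ones. Its astrocyte (3758 CPM) and endothelial (230.2 CPM) sums were the lowest of all 9 libraries too, as was its mean of immediate early genes (-0.62). Their part in its low values was not tested. In EAE, no one library led: replicate 3 was highest for Tsc22d3, Zbtb16, Cdkn1a and Dusp1, replicate 1 for Sgk1, Klf9 and Errfi1, and replicate 2 for Hif3a and Sult1a1.

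Compared per kilobase of exon, so that genes of different length can be set side by side, Klf9 was the most abundant in every group (42.0 ± 5.58 CPM per kb in naive, SD, n = 3). Tsc22d3 (12.7 ± 1.83), Dusp1 (11.2 ± 4.52), Sgk1 (11.2 ± 0.916) and Zbtb16 (10.8 ± 3.17) followed in naive cortex and did not differ beyond their spread. Below them came Errfi1 (7.47 ± 0.559), Sult1a1 (6.14 ± 0.356), Cdkn1a (3.94 ± 1.03) and Hif3a (0.913 ± 0.324), whose ranges did not overlap each other. The range of Errfi1 met that of Dusp1. In EAE, Sgk1 moved to the second place with 38.95 ± 5.20 CPM per kb, still under Klf9 at 54.85 ± 5.43, and Sult1a1 to the fourth with 15.7 ± 1.26, overlapping Zbtb16 at 14.5 ± 2.46. Hif3a remained the lowest (3.95 ± 0.723). In treated EAE, Tsc22d3, Sgk1 and Zbtb16 were again within each other's spread, at 14.9, 14.6 and 13.0 CPM per kb. Lengths are those of all annotated exons merged, which understates genes that use few of them.

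Other genes of the response were set beside the 9 from a list of 24 further glucocorticoid-induced genes. In EAE, 11 of the 24 rose and none fell, where 0.735% of all genes tested were called higher. The median log2 fold change was 0.82 and all 24 were above 0. The smallest p belonged to Ddit4, an mTORC1 inhibitor (1.44, SE 0.081), Nfkbia, which restrains NF-kB (1.22, SE 0.135), Cebpd, a C/EBP transcription factor (2.05, SE 0.23), and Gjb6, the astrocyte gap junction protein connexin 30 (1.33, SE 0.15). Treated against untreated EAE, 5 of the 24 fell: Ddit4 (-1.25), Nfkbia (-0.96), Gjb6 (-0.96), Sdc4 (-0.77), a heparan sulfate proteoglycan, and Arrdc2 (-1.66), an alpha-arrestin. Over all genes tested, 0.129% were called lower. The median of the list was -0.52 and none was above 0. Ddit4 was at 25.5, 27.3 and 28.1 CPM in naive, 71.1, 80.2 and 67.8 CPM in EAE and 29.4, 31.3 and 31.4 CPM in treated EAE, with no overlap between the groups. Of the list genes named in this paragraph, only Ddit4 kept both calls in all 17 alternatives. Without naive replicate 1 or 2, 1 of the 24 passed in EAE against naive, without naive replicate 3, 4 did, and without EAE replicate 2, 6 did. In treated against untreated EAE, leaving out any 1 library left 1 to 3. DESeq2 called 19 in EAE against naive and 14 in treated against untreated EAE, where it called 1086 and 748 of all 18644 genes. With the replicate block fitted on EAE and treated libraries alone, 2 of the 24 passed. Many of these genes are also known to respond to inflammation or fasting, and the list was drawn up with earlier results of these data known.

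The receptors and their co-chaperones were set beside their targets. The co-chaperone Fkbp5, itself induced by glucocorticoids, was counted in the list above instead. It was at 30.9, 29.7 and 23.0 CPM in naive, 92.7, 101 and 75.3 CPM in EAE and 41.2, 46.7 and 22.45 CPM in treated EAE. Every EAE library was thus above all others for Fkbp5, which was not among the genes called in treated against untreated EAE. Of the 14 genes of the receptor list, among them Nr3c1, Nr3c2, the hormone-regenerating enzyme Hsd11b1 and the chaperones Hsp90aa1, Fkbp4 and Ptges3, none passed with edgeR in any comparison. DESeq2 called 1 in treated against untreated EAE and none in EAE against naive. The medians were -0.16 and 0.11, and 10 of 14 were below 0 in EAE. In 5 of the 14 every EAE library was below every naive one, and in none above. In 4 every treated library was above every untreated EAE one, and in none below. The shares of all genes are not given here. Hsp90aa1 was at 860, 772 and 838.5 CPM in naive, 714, 626 and 693 CPM in EAE and 916, 906 and 752 CPM in treated EAE. Nr3c1, the glucocorticoid receptor itself, was at 130, 112 and 137 CPM in naive, 100, 94.9 and 115 CPM in EAE and 108, 111 and 131 CPM in treated EAE. EAE replicates 1 and 2 lay below every naive library and replicate 3 inside the naive range, and the log2 fold change of -0.29 did not pass (SE 0.11, edgeR adjusted p = 0.221). It was 1 of 2 genes of the list called lower with the replicate block on EAE and naive libraries alone (edgeR adjusted p = 0.0440), which no label pairs. Nr3c2 gave 0.06 (SE 0.22, edgeR adjusted p = 0.930), and turned to -0.060 without EAE replicate 1.

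**Figure D4:**
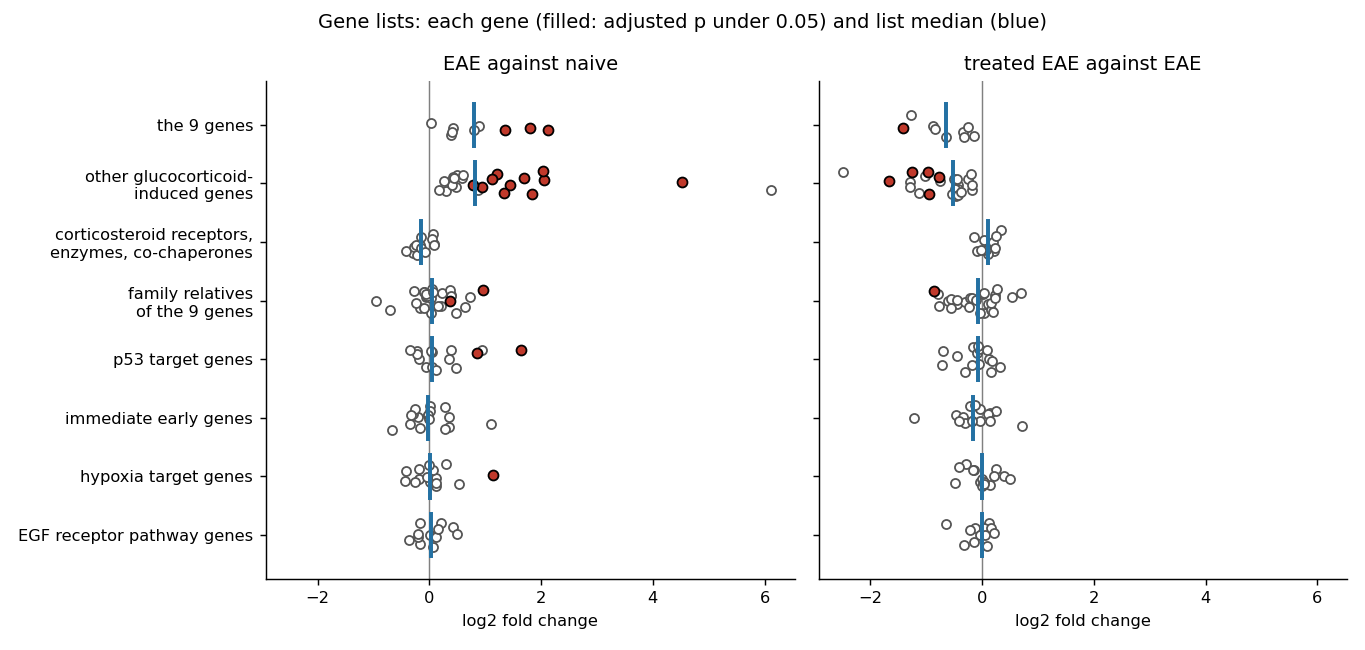
Log2 fold change of every tested gene of 8 lists in 2 comparisons that share the EAE libraries, with the list median in blue and filled points past an adjusted p of 0.05. The 9 genes and the 24 other glucocorticoid-induced genes lie to the right of 0 in EAE against naive and to the left in treated against untreated EAE. The medians of the other lists lie between -0.17 and 0.11.

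Relatives of the 9 genes by family gave 2 calls among 26 tested in EAE against naive, Klf15 and Klf13, with a median of 0.04, and 1 in treated against untreated EAE, Klf15, with a median of -0.08. Of all genes tested, 0.987% and 0.22% were called in these comparisons. With 1 library left out, the relatives had 0 to 2 and 0 to 1 calls.

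Across the 9 libraries, the genes whose level relative to naive lay closest to the mean of the 9 genes were Nfkbiz, Klf15, Prodh, Adipor2 and Sspo, with root mean square differences of 0.11, 0.12, 0.13, 0.14 and 0.14 on the log2 scale among 14092 genes. Of the 9 genes themselves, Tsc22d3 was nearest to that mean (0.13) and Hif3a farthest (0.87). Nfkbiz, which encodes a nuclear IkB protein, was at 7.42, 7.99 and 6.82 CPM in naive, 12.2, 12.3 and 14.9 CPM in EAE and 7.08, 9.39 and 9.37 CPM in treated EAE. Its treated replicate 1 was the lowest of the treated libraries too, as it was for Klf15, Prodh, Adipor2 and Sspo. Prodh is proline dehydrogenase and Adipor2 an adiponectin receptor. The 5 genes were chosen for this likeness, so their levels are a description.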

How the data were processed

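RNA of 9 mouse cortex samples, 3 in each of 3 groups, was sequenced after oligo(dT) selection, per the labels' protocols. Per the series' design text and the submitters' processing notes, reads were checked with FastQC 0.11.8, trimmed with fastp and aligned with Hisat2, and bowtie2 is named for quantification. The annotation, strand setting and counting options behind the table are not stated. The authors deposited raw counts per gene symbol for 34714 genes. Columns were matched by title, and 9 further columns match no sample used here and were left out. In each library 3.80 to 4.43 genes had 2 counts for every gene with 1, so counts may not be independent fragments and counting error may exceed what they imply. Within groups no library was a copy of another (chi-square per degree of freedom 16.0 to 53.4), and pairs between groups were not checked.

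All 9 libraries entered 1 quasi-likelihood fit by edgeR 4.0.16 under R 4.3.3 (genes kept by filterByExpr, TMM scaling, robust glmQLFit, glmQLFTest) with group as the factor (6 residual degrees of freedom), adjusted by Benjamini and Hochberg over 18644 genes. SE is the absolute log2 fold change over the square root of F. On simulated counts for EAE against naive, over 18382 genes, the fit recovered 85% of changes of 1 and 98% of changes of 2 on the log2 scale. The changed genes left out those of low level, and counts were drawn independently, with no deviation shared between libraries. The real libraries may not meet this, so these shares may overstate recovery in the data. DESeq2 1.42.0, the tool of the study's design text, was an alternative, with other scaling, filters, groups, a replicate block and each library left out. The block was weighed because EAE and treated libraries of the same number had deviations from their group means that correlated at 0.175, 0.245 and 0.238 over genes, though no label pairs them. For EAE and naive the values were 0.0545, 0.114 and 0.36, and for treated EAE and naive -0.246, -0.121 and 0.199. No label pairs these libraries either, yet the block on all 9 libraries also set naive ones with those of the same number.

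The 9 genes, the lists and the motifs were chosen with earlier results of these data known. Named were all 9 genes, per list up to 4 genes of smallest p and every called gene where 5 or fewer passed, and the 5 genes nearest in pattern with a mean log2 CPM (prior count 2) of at least 1. Fos, Fkbp5, Nr3c1, Nr3c2, Hsd11b1 and the chaperones were named for their role, after their values were seen. Promoters are RefSeq windows, cut to the 250 bases before each start, and Zbtb16 has no entry in the table used. Exon lengths and positions are those of GENCODE M21. The single value of 1 cell type marker is not reported here.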

Additional observations from a re-analysis of the deposited data

How the results depend on the processing

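Of the 9 genes, 8 kept their direction under all 17 alternatives in EAE against naive and 8 in treated against untreated EAE, and 6 in treated EAE against naive. Dusp1 turned in EAE against naive with the replicate block (-0.014, SE 0.171, and -0.024, SE 0.108, with the block on the 2 groups alone, against an SE of 0.48 without it) and without EAE replicate 3, naive replicate 1 or naive replicate 2, in a range of -0.52 to 0.42 with a library left out. It turned in treated against untreated EAE without EAE replicate 3 (range -0.71 to 0.21) and in treated EAE against naive without naive replicate 3 (range -0.68 to 0.082). In that last comparison Klf9 turned without naive replicate 2, treated replicate 2 or treated replicate 3 (range -0.075 to 0.12), and Cdkn1a without naive replicate 1 or treated replicate 1 (range -0.25 to 0.13). Nr3c2 turned in EAE against naive without EAE replicate 1 (range -0.060 to 0.19) and in treated against untreated EAE without treated replicate 3 (range -0.45 to 0.036).

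Of the 9 genes, 3 were called in EAE against naive and 0 to 3 with 1 library left out, 6 with DESeq2, 4 with the replicate block (Tsc22d3 added) and 7 with the replicate block on the 2 groups alone, a fit added after the data were seen. Treated against untreated EAE gave 1, and 0 or 1 with a library left out, 5 with DESeq2, 0 with the 2 groups alone, 1 with no filter on low counts (Sult1a1 in place of Sgk1), 2 with the replicate block and 1, Hif3a, with the block on the 2 groups alone. Over all genes, 184, 41 and 0 were called in the 3 comparisons, 1086, 748 and 3 with DESeq2, and 726, 4 and 0 with the block on the 2 groups alone. The 2 groups alone without a block gave 174, 3 and 0 calls. Leaving out a library gave 2 to 261, 4 to 38 and 0. The other glucocorticoid-induced genes had 11 and 5 calls, 19 and 14 with DESeq2 (and 1 in treated EAE against naive), 18 and 2 with the block on the 2 groups alone, 1 in treated against untreated EAE with the 2 groups alone, and 1 to 13 and 1 to 3 with a library left out. Family relatives (2 and 1) had 2 in treated against untreated EAE with DESeq2, 1 and 0 with the 2 groups alone, 7 and 0 with the block on them, and 0 to 2 and 0 to 1 with a library left out. Receptors and co-chaperones (0 and 0) had 2, both lower and 1 of them Nr3c1, in EAE against naive with that block and 1, higher, in treated against untreated EAE with DESeq2. The p53 targets (2 and 0) had 0 to 3 in EAE against naive with a library left out and 1 in treated against untreated EAE with DESeq2. Hypoxia targets (1 and 0) had 3 (1 higher and 2 lower) and 1 (higher) with DESeq2, 0 with the 2 groups alone, 0 with the replicate block, 2 (both lower) with that block on the 2 groups alone, and 0 to 1 with a library left out. With the replicate block, no call in treated against untreated EAE changed among the 9 genes and the list genes tested by name, other than those of Sgk1, Tsc22d3 and Hif3a. The cause of these shifts was not tested.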
